A study of Rattus norvegicus with 52 samples.

Results

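*Cryaa*, *Gata6*, *Shc1*, *Tnc*, *Bicc1* and *Fam180a* are 6 of the 17356 genes in the count files. They were chosen from the 9-week values themselves: at 9 weeks of age their CPM (the count of a gene scaled to the total of its library) in all 8 *Cdkn1b*-/- libraries lay apart from those in all 8 *Cdkn1b*+/+ libraries. Their genotype difference at 9 weeks is therefore given as a description with no test, and the tests below use libraries that had no part in the choice. Among the 12809 genes that passed the filter on low counts at 9 weeks, 68 (0.531%) met the same rule, 55 (0.429%) of them higher and 13 (0.101%) lower in *Cdkn1b*-/- cells. *Gata6*, *Bicc1*, *Fam180a*, *Cryaa*, *Shc1* and *Tnc* ranked 4, 6, 7, 8, 11 and 15 among these 68 by the width of the gap between the genotypes.

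The study deleted *Cdkn1b*, which encodes the cyclin-dependent kinase inhibitor p27, in rats of the ACI strain, and sequenced RNA from sorted mammary cells. At 9 weeks there were 2 libraries of each genotype for basal (Cd24+ Cd29HIGH), mature luminal (Cd24+ Cd29LOW Cd49b- PNA-), Cd49b+ and PNA+ cells, the last 2 being luminal progenitor fractions. At 4 weeks there were 2 *Cdkn1b*-/- and 3 *Cdkn1b*+/+ basal libraries and 3 of each genotype from luminal cells (Cd24+ Cd29LOW), and among rats labelled 6 weeks 2 and 3 basal and 2 and 2 luminal libraries, all untreated. In a separate experiment on rats of unaltered genotype, basal cells and Cd49b/PNA luminal cells came from ACI and BN females given a control or an estradiol (E2) implant at 9 weeks of age for 3 weeks, with 2 ACI libraries and 1 BN library for each treatment and cell type. Each BN title names a pair of animals. The *Cdkn1b*-/- rats carried the frameshift alleles em1 or em4, made in zygotes of the outbred Sprague-Dawley stock and crossed onto ACI, and the *Cdkn1b*+/+ rats came from the same heterozygous crosses. All cells of a *Cdkn1b*-/- rat lacked p27 from conception, and which allele or backcross generation each library carries is not given in the sources used here.

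Total counts were between 21545344 and 33859550 per library at 9 weeks, between 14674040 and 23045345 at 4 weeks, between 7985619 and 16390460 at 6 weeks, and between 13659389 and 25280421 in the E2 experiment. *Cdkn1b* itself was lower in *Cdkn1b*-/- cells of every 9-week population, by a mean log2 difference from -1.36 in mature luminal to -1.92 in Cd49b+ cells. A small deletion need not remove a transcript from the counts, so this is a limited check of the labels. At 4 and 6 weeks together its log2 fold change was -0.76 (SE 0.38), which did not pass the test (adjusted p = 0.225, edgeR's quasi-likelihood test). The library labelled *Cdkn1b*+/+ basal replicate 3 of 6 weeks had 3.28 normalised CPM of *Cdkn1b*, less than both *Cdkn1b*-/- basal libraries of that age (10.5 and 12.2). Among luminal libraries, replicate 2 of *Cdkn1b*-/- at 6 weeks (37.96) was above 1 *Cdkn1b*+/+ library (31.9), and replicate 1 of *Cdkn1b*-/- at 4 weeks (17.4) was above 2 of them (15.7 and 13.96). Normalised CPM are CPM after TMM scaling, which evens out differences in library composition. Summed levels of 9 marker lists (basal, luminal, fibroblast, endothelial, lymphoid, myeloid, adipocyte, Schwann cell, pericyte) were compared between the genotypes within each cell type.

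At 9 weeks, with 2 libraries against 2 in each population, 7 of the 9 lists lay apart in basal cells, all higher in *Cdkn1b*-/- libraries. Among them were the basal list (34590 to 39933 against 19700 to 27954, 7 of 9 genes higher), the pericyte list (445 to 466 against 101 to 219, 7 of 7) and the adipocyte list (355 to 466 against 132 to 190, 7 of 8). In PNA+ cells 7 lists lay apart, 2 higher and 5 lower in *Cdkn1b*-/- libraries, such as the myeloid list (811 to 1665 against 257 to 669, 4 of 13 genes higher) and the fibroblast list (305 to 325 against 826 to 1807, 1 of 12). In PNA+ cells the basal list was higher with 2 of 9 genes higher, and the lymphoid and adipocyte lists were lower with 7 of 9 and 5 of 8 genes higher. In mature luminal cells 1 list lay apart, the basal list (higher, with 4 of 9 genes higher), and in Cd49b+ cells 0 did. How many of all genes lie apart in such comparisons of 2 against 2 libraries was not counted. The part of these markers in the 9-week values of the 6 genes was not tested.

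At 6 weeks the fibroblast, endothelial, adipocyte, Schwann cell and pericyte lists were higher in every *Cdkn1b*-/- than in every *Cdkn1b*+/+ library within each cell type, and the luminal list was lower. The basal list of basal cells (13822 to 17118 against 6959 to 10285) and the myeloid list of luminal cells (726 to 1827 against 143 to 239.6) were higher too. Of the adipocyte list only 4 of 8 genes were higher in each cell type, and of the pericyte list 4 of 7 in basal cells. The adipocyte list of luminal cells was 123 and 9075 against 18.8 to 20.6. Of all single genes, 40.9% in basal and 49.7% in luminal cells lay apart between the genotypes in either direction. At 4 weeks the basal list was higher in *Cdkn1b*-/- basal cells (8 of 9 genes higher). The endothelial list was lower there in sum (76.2 to 197 against 203 to 276), although 6 of its 10 genes were higher. In luminal cells the lymphoid list was higher in *Cdkn1b*-/- libraries (6 of 9 genes), at low sums of 13.0 to 15.5 against 7.29 to 12.4. The other lists overlapped.

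The products of the 6 genes have little in common. αA-crystallin, made from *Cryaa*, is a small heat shock protein and chaperone that is a main protein of the eye lens. GATA6 is a zinc finger transcription factor of the endoderm, heart and lung, and the GATA factor best known in mammary luminal cells is its relative GATA3. SHC1 is the adaptor that couples activated receptor tyrosine kinases through GRB2 and SOS to Ras, and its longest isoform, p66, also acts in oxidative stress. Tenascin-C, from *Tnc*, is a large matrix glycoprotein that appears in developing, wounded and tumour stroma and is bound by integrins and syndecan-4. BICC1 is an RNA-binding protein that represses or stabilises transcripts, and its loss causes cystic kidneys. *Fam180a* encodes a small protein whose function is little known.

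Promoters from RefSeq (build GRCr8), 250 bases before to 50 bases after the start of the gene, were matched for all 6 genes by symbol. They were searched on both strands for TGACTCA, the AP-1 site. The heat shock factor letters GAANNTTC, the STAT letters TTCNNNGAA and the E2F letters TTTCCCGC were searched too, as were the palindromic estrogen response element, the TATA box TATAAA, and a site of the GATA family. The last of these was searched as GATAAG. No 2 of the matches found overlap. The window of *Cryaa*, the gene with the widest genotype difference, and that of *Shc1*, the only one of the 6 that was lower in *Cdkn1b*-/- cells, are shown with the matched letters in capitals. Both lie on the plus strand, *Cryaa* at chr20:9784661-9784960 and *Shc1* at chr2:177138298-177138597.
Cryaa: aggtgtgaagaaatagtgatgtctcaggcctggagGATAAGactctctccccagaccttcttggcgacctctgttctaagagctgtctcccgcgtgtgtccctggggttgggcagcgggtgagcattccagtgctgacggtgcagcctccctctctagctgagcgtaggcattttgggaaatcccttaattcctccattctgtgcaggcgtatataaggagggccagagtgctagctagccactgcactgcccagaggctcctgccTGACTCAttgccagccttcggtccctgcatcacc
Shc1: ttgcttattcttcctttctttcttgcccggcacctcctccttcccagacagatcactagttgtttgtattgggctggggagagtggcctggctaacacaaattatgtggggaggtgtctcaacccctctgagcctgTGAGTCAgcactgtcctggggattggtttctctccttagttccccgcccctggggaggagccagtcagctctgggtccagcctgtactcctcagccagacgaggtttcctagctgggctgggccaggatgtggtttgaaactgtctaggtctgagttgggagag

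The capitals in the *Cryaa* window mark GATAAG and TGACTCA, and those in the *Shc1* window mark TGACTCA on the opposite strand. TGACTCA also lay in the *Fam180a* window, so that 3 of the 6 held it against 4.53% of the 27457 promoters in the table. GATAAG was in 1 of the 6 (6.91% of all) and TATAAA in 1, that of *Tnc* (14.3% of all). The heat shock factor, STAT, estrogen response element and E2F letters were in none of the 6 windows, against 8.34%, 8.68%, 0.0255% and 1.03% of all promoters. These matches describe letters in a window and were not set against binding data. RefSeq lists 2 starts for *Cryaa*, and the window of the first is printed.

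*Cryaa*, the lens chaperone, had the widest difference at 9 weeks. Its normalised CPM lay between 1.64 and 42.5 with a median of 4.52 in the 8 *Cdkn1b*-/- libraries, and between 0.145 and 1.02 with a median of 0.210 in the 8 *Cdkn1b*+/+ libraries. The lowest *Cdkn1b*-/- library was thus above the highest *Cdkn1b*+/+ library, which held 27 counts or fewer each. Basal cells stood highest in both genotypes, at 30.3 ± 17.2 (SD, n = 2) where p27 was deleted. The *Cdkn1b*+/+ basal pair had 0.955 ± 0.093 (SD, n = 2). The other 3 *Cdkn1b*-/- populations had means from 3.17 to 4.55 and overlapped each other. The mean log2 difference between genotypes was 4.76 in basal, 4.12 in mature luminal, 3.47 in PNA+ and 3.19 in Cd49b+ cells.

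*Gata6* was low in all 9-week libraries, and its lowest *Cdkn1b*+/+ library held 3 counts. It ranged from 0.934 to 4.37 normalised CPM (median 1.27) in *Cdkn1b*-/- and from 0.135 to 0.533 (median 0.380) in *Cdkn1b*+/+ libraries. In *Cdkn1b*-/- cells the number 2 libraries of mature luminal, Cd49b+ and PNA+ cells stood apart at 3.72, 3.66 and 4.37, while the other 5 lay between 0.934 and 1.28. The mean log2 difference was 1.86 in basal, 1.90 in PNA+, 1.93 in Cd49b+ and 2.94 in mature luminal cells.

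*Shc1*, the receptor adaptor, went the other way and was the best counted of the 6, with at least 646 counts in every 9-week library. It ranged from 22.6 to 43.9 normalised CPM (median 33.6) in *Cdkn1b*-/- and from 64.7 to 144.5 (median 99.6) in *Cdkn1b*+/+ libraries. The 4 populations differed little: means were 27.7 to 38.2 in *Cdkn1b*-/- and 90.9 to 113.3 in *Cdkn1b*+/+ cells. The mean log2 difference was -1.28 in basal, -1.53 in mature luminal, -1.60 in PNA+ and -1.67 in Cd49b+ cells.

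*Tnc*, the matrix gene, ranged from 15.5 to 33.4 normalised CPM (median 20.8) in *Cdkn1b*-/- and from 2.34 to 10.8 (median 5.79) in *Cdkn1b*+/+ libraries. The 2 highest *Cdkn1b*-/- libraries were number 1 of PNA+ and Cd49b+ cells, at 33.4 and 33.3. The mean log2 difference was 1.14 in basal cells, where the highest *Cdkn1b*+/+ library was found, 1.68 in Cd49b+, 2.32 in PNA+ and 2.35 in mature luminal cells. *Bicc1*, the RNA-binding gene, ranged from 7.61 to 28.0 (median 11.4) in *Cdkn1b*-/- and from 0.979 to 4.45 (median 2.93) in *Cdkn1b*+/+ libraries. Its mean log2 difference was smallest in basal cells too, at 1.64, and largest in mature luminal and PNA+ cells, at 2.56 and 2.79.

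*Fam180a* ranged from 1.79 to 3.63 normalised CPM (median 2.15) in *Cdkn1b*-/- and from 0.166 to 1.06 (median 0.833) in *Cdkn1b*+/+ libraries. Its mean log2 difference was 1.38 in mature luminal, 1.54 in basal, 1.92 in Cd49b+ and 2.77 in PNA+ cells. In sorted bulk samples such as these, fewer cells that express a gene and less of its RNA per cell cannot be told apart.

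**Figure D1:**
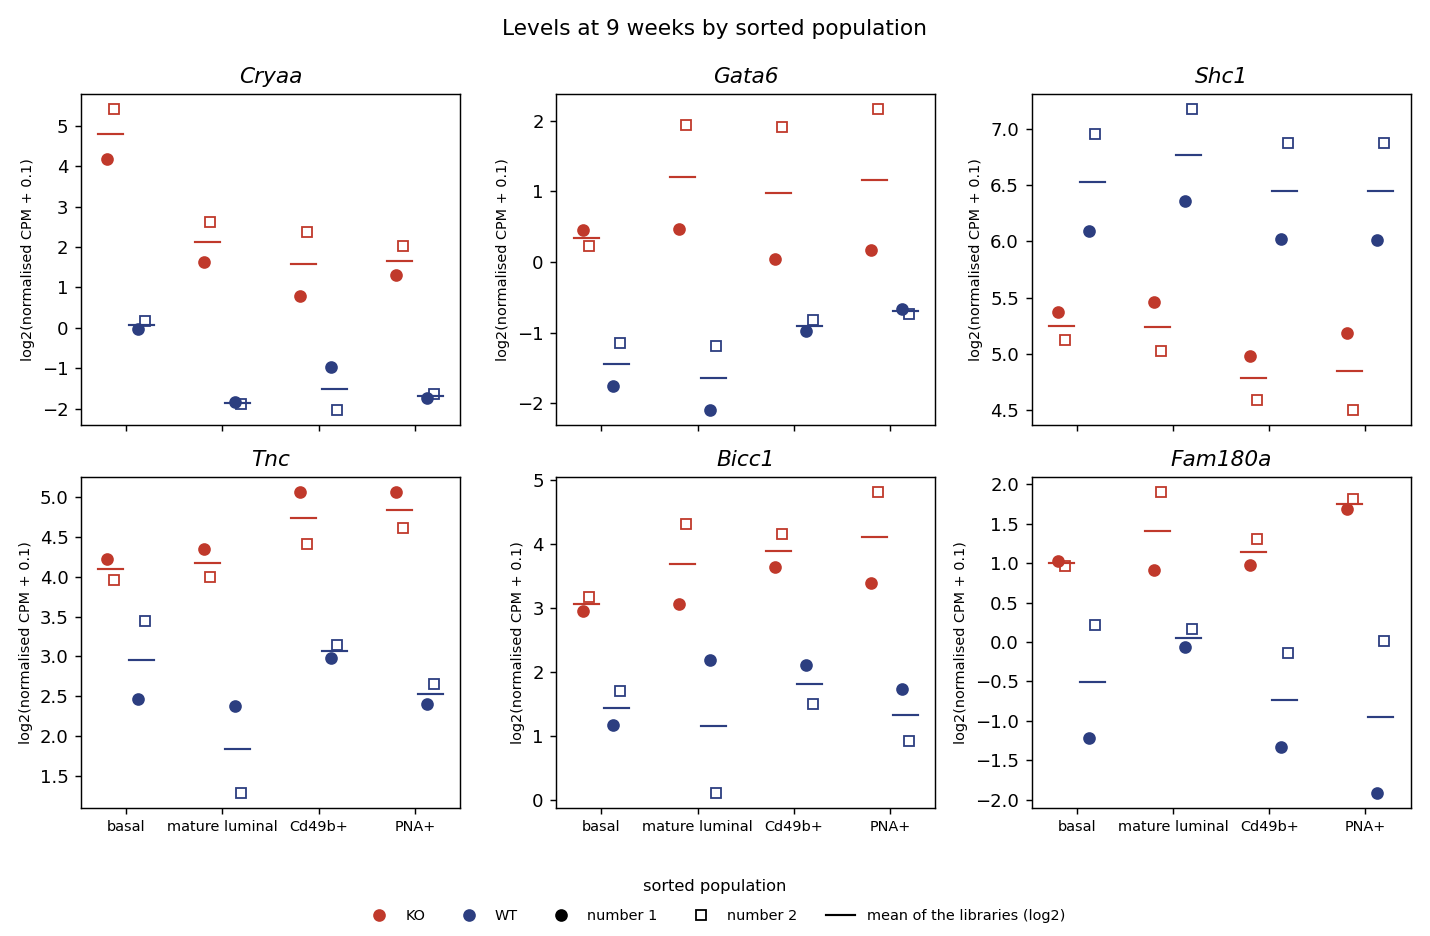
Normalised level of each gene at 9 weeks, as log2 of CPM plus 0.1 (vertical axis), by sorted population (horizontal axis), with *Cdkn1b*-/- (KO) libraries in red, *Cdkn1b*+/+ (WT) libraries in blue, number 1 as filled circles, number 2 as open squares and group means as bars. In every panel the 8 red points lie apart from the 8 blue points, below them for *Shc1* and above them for the other 5 genes, and for *Shc1* the open blue squares all lie above the filled blue circles.

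The rule's edge shows how narrow some of the 68 separations were. Just inside it, *Ccl9* had 0.314 as both its lowest *Cdkn1b*-/- and its highest *Cdkn1b*+/+ value after rounding, and *Dcaf13* had 24.1 against 24.0. Just outside it, *Ncoa5* had a lowest *Cdkn1b*-/- value of 15.89 and a highest *Cdkn1b*+/+ value of 15.91. The 6 genes had gaps of 0.52 (*Tnc*) to 0.80 (*Gata6*) on the log2 scale.

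The 16 libraries at 9 weeks carry a number 1 or 2, and libraries of one genotype with the same number moved together across populations. The correlation over genes of their deviations from the group means lay between 0.261 and 0.803 in all 12 pairs of populations within a genotype, and between -0.365 and 0.0014 in the 16 pairs across genotypes. Whether the 4 libraries of a number share animals is not given in the sources used here, and if they do, each genotype stands on fewer animals than its 8 libraries.

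*Shc1* in *Cdkn1b*+/+ cells was 64.7 to 82.2 normalised CPM in the 4 number 1 libraries and 117.1 to 144.5 in the 4 number 2 libraries, which do not overlap. The mean log2 difference between the numbers was 0.85. Of all genes tested, 15.2% lay apart between the numbers in *Cdkn1b*+/+ cells and 7.62% in *Cdkn1b*-/- cells, where none of the 6 did. In *Cdkn1b*-/- cells *Shc1* was lower in number 2 in all 4 populations, by a mean of -0.44. *Bicc1* was higher in number 2 in all 4 *Cdkn1b*-/- populations (mean log2 difference 0.85) and *Cryaa* likewise (1.13). *Gata6* was higher in 3 of 4 (1.29). *Fam180a* was higher in number 2 in all 4 *Cdkn1b*+/+ populations (1.25). With the 4 libraries of a genotype and number summed, *Shc1* had 32.03 and 27.2 CPM in *Cdkn1b*-/- and 78.5 and 133 in *Cdkn1b*+/+ cells, and *Cryaa* had 5.26 and 12.4 against 0.495 and 0.389.

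Lists of relatives and partners of the 6 genes were set beside them at 9 weeks. None of the tested genes on these lists met the no-overlap rule, against 0.531% of all genes: 0 of 12 crystallins and small heat shock proteins, 0 of 7 GATA factors and partners, 0 of 19 SHC adaptors, receptors and Ras partners, 0 of 18 tenascins, receptors and matrix partners, and 0 of 14 BICC1 partners and cystic kidney genes. The median log2 difference was 0.05, -0.26, 0.05, 0.05 and -0.15 in these lists, against 0.01 over all genes tested. *Cryab*, the nearest relative of *Cryaa* and abundant in basal cells, ranged from 116.8 to 399.7 normalised CPM in *Cdkn1b*-/- and from 177.6 to 374.9 in *Cdkn1b*+/+ libraries. *Gata3*, the luminal GATA factor, ranged from 67.7 to 140.6 and from 98.8 to 154.1. *Grb2*, the adaptor that binds SHC1, ranged from 75.8 to 139.2 and from 72.8 to 116.6. In each of these 3 the genotypes overlapped.

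The genes lie on chromosomes 20 (*Cryaa*, *Bicc1*), 18 (*Gata6*), 2 (*Shc1*), 5 (*Tnc*) and 4 (*Fam180a*), in the RefSeq order of build GRCr8, and *Cdkn1b* lies on chromosome 4 too. None of the 12 nearest tested neighbours, 1 on each side of each gene, met the no-overlap rule. *Cks1b* beside *Shc1*, the cyclin-dependent kinase subunit that takes part in p27 degradation, had a mean of 55.8 normalised CPM in *Cdkn1b*-/- and 41.4 in *Cdkn1b*+/+ libraries.

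At 4 weeks none of the 6 genes separated the genotypes, in basal cells (9.1% of all genes did, in either direction), in luminal cells (12.1%) or over both (0.166%). None passed edgeR's test, and neither did any of the 12082 genes tested (0%), of which 310 in basal and 435 in luminal cells had an unadjusted p under 0.05. With DESeq2, 1 gene in basal cells and 0 in luminal cells passed, neither being one of the 6. *Cryaa* had 0.888 and 0.443 normalised CPM in the *Cdkn1b*-/- basal libraries and 0, 1.44 and 0 in the *Cdkn1b*+/+ ones, and no more than 0.121 in any luminal library. The one *Cdkn1b*+/+ library at 1.44 was the highest, so the groups overlapped. *Gata6* was at 0 in 3 of 5 *Cdkn1b*-/- libraries and reached 1.11, and lay between 0.0389 and 1.34 in the 6 *Cdkn1b*+/+ libraries.

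*Shc1* at 4 weeks was 11.3 and 20.2 normalised CPM in *Cdkn1b*-/- and 13.2, 13.1 and 20.6 in *Cdkn1b*+/+ basal cells. In luminal cells it was 16.8, 13.3 and 25.3 against 12.8, 24.9 and 30.6. The groups overlapped, and the log2 fold changes were 0.01 (SE 0.46) and -0.30 (SE 0.42), against a mean log2 difference of -1.52 at 9 weeks. *Tnc* was 3.11 and 18.1 against 3.16, 15.2 and 2.52 in basal cells, and between 0.657 and 3.04 in the 6 luminal libraries. *Bicc1* was 0.370 and 3.72 against 0.976, 0.977 and 2.05 in basal cells. Here too the *Cdkn1b*-/- pair spanned the *Cdkn1b*+/+ values.

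*Fam180a* was 11.1 and 1.11 normalised CPM in the *Cdkn1b*-/- basal libraries of 4 weeks and 1.95, 1.18 and 1.05 in the *Cdkn1b*+/+ ones. One library stood far above the other 4. The log2 fold change was 2.11 (SE 0.92, adjusted p = 1, edgeR's quasi-likelihood test) and -0.33 without that library.

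At 6 weeks *Cryaa* and *Fam180a* did not pass the filter. *Cryaa* had 0 counts in 8 of the 9 libraries and 2 counts in the other, a *Cdkn1b*-/- basal library. The other 4 genes passed, and 0 of 4 separated the genotypes in basal cells (40.9% of all genes), 1 of 4 in luminal cells (49.7%) and 0 of 4 over both (9.37%). The 1 gene was *Tnc*, at 2.43 and 1.90 normalised CPM in *Cdkn1b*-/- and 0.0952 and 1.39 in *Cdkn1b*+/+ luminal cells. It was higher in *Cdkn1b*-/- cells, as at 9 weeks, and 24.3% of all genes lay apart in the direction of their 9-week means. In the same luminal libraries the summed fibroblast list was 226 and 5358 in *Cdkn1b*-/- cells and between 25.1 and 47.2 in *Cdkn1b*+/+ cells, with 11 of its 12 genes higher. The endothelial list, with 10 of 10 genes higher, was 310 and 2267 against 2.47 to 16.5. The part of these markers in the *Tnc* values was not tested. In basal cells *Tnc* was 18.4 and 12.5 against 49.6, 12.4 and 1.70, so the groups overlapped.

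*Shc1* at 6 weeks was 15.4 and 26.7 normalised CPM in *Cdkn1b*-/- and 16.03, 23.5 and 57.0 in *Cdkn1b*+/+ basal cells, and 25.7 and 51.0 against 34.0 and 36.7 in luminal cells. *Gata6* was 0.0703 and 0.458 against 3.25, 0 and 7.60 in basal cells. Its *Cdkn1b*+/+ values thus ran from the lowest to the highest of the age. The 7.60 came from the library with low *Cdkn1b*. *Bicc1* was 1.83 and 2.94 against 5.50, 1.05 and 6.16 in basal and 2.01 and 0 against 4.00 and 0.619 in luminal cells. None of the 4 genes passed edgeR's test at 6 weeks in either cell type (adjusted p from 0.658 to 0.972), and none of the 11921 genes did (0%), of which 1072 in basal and 1961 in luminal cells had an unadjusted p under 0.05. DESeq2 called 321 and 1331 genes there and none of the 4. With both younger ages in 1 fit, edgeR called 1103 genes in luminal and 217 in basal cells. Without replicate 1, only 1 *Cdkn1b*-/- luminal library of 6 weeks was left, and the median log2 fold change over all genes was -0.67. It was -0.01 with both. The library left, replicate 2, had summed adipocyte, fibroblast and endothelial lists of 9075, 5358 and 2267, against 123, 226 and 310 in replicate 1. Their part in that shift was not tested. Without the low-*Cdkn1b* library the count of genes separating the genotypes at either age was still 1.

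**Figure D2:**
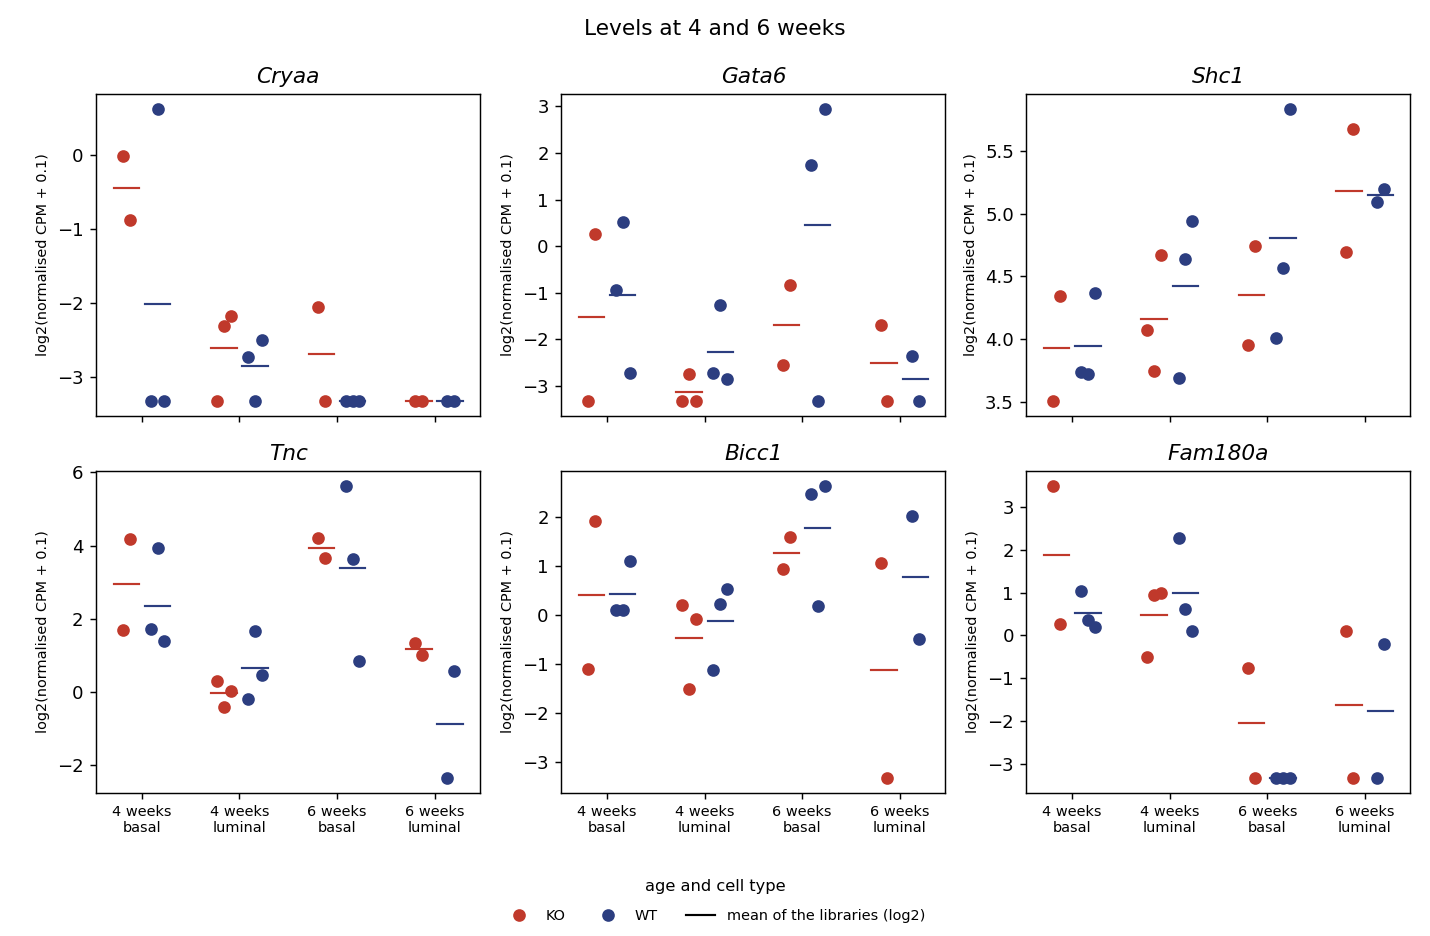
Normalised level of each gene at 4 and 6 weeks, as log2 of CPM plus 0.1 (vertical axis), by age and cell type (horizontal axis), with *Cdkn1b*-/- (KO) libraries in red, *Cdkn1b*+/+ (WT) libraries in blue and group means as bars; points at about -3.3 are libraries with 0 counts. Red and blue overlap in all groups but *Tnc* in luminal cells at 6 weeks, among the genes that passed the filter, and *Cryaa* at 6 weeks is at 0 in 8 of 9 libraries.

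The 20 libraries of 4 and 6 weeks were also fitted together. None of the 6 genes passed (adjusted p from 0.256 to 1.00, edgeR's quasi-likelihood test), while 1002 of 12572 genes (7.97%) did. None of the 6 had an unadjusted p under 0.05, and DESeq2 called 2058 genes and none of the 6. The log2 fold changes of *Cdkn1b*-/- against *Cdkn1b*+/+ cells were -1.29 (SE 1.14) for *Gata6*, -0.24 (SE 0.31) for *Shc1*, 0.17 (SE 0.60) for *Tnc* and -0.47 (SE 0.68) for *Bicc1*. *Gata6* and *Bicc1*, which were higher in *Cdkn1b*-/- cells at 9 weeks, had estimates below 0 here. No fold change is given for *Cryaa* and *Fam180a*, since whole groups were at 0. In an exact two-sided permutation test over the 11 animals (5 *Cdkn1b*-/- and 6 *Cdkn1b*+/+, arranged within each age, smallest possible p = 0.005), p was 0.165 for *Cryaa*, 0.245 for *Gata6*, 0.435 for *Shc1*, 0.435 for *Tnc*, 0.395 for *Bicc1* and 0.625 for *Fam180a*. Of the 5 *Cdkn1b*-/- animals, 0 lay above the *Cdkn1b*+/+ median for *Gata6* and 4 for *Cryaa* and for *Tnc*. Among the lists of partners, *Cryz* (log2 fold change 2.41, SE 0.47, adjusted p = 0.00656, edgeR's quasi-likelihood test), *Hspb2* (3.18, adjusted p = 0.0387) and *Mmp2*, a matrix metalloproteinase (1.85, adjusted p = 0.0132), were called higher in *Cdkn1b*-/- cells and *Mmp3* (-1.04, adjusted p = 0.0466) lower, and no gene of the GATA, SHC or BICC1 lists was called. At 6 weeks the summed fibroblast list moved the same way as the higher genes. It was 4133 to 5218 in *Cdkn1b*-/- against 418 to 1316 in *Cdkn1b*+/+ basal cells, with 10 of its 12 genes higher. Its part in these calls was not tested. The fit behind these calls took basal and luminal libraries of the same animal as independent. With the animal as a random block in limma voom, 476 of 12572 genes were called. In a fit with genotype, age and cell type as additive terms 0 were, these list genes included. No difference in the genotype effect between 4 and 6 weeks, or between basal and luminal cells, passed edgeR's test among those of the 6 genes that could be fitted, which left out *Cryaa* and *Fam180a* between cell types at 6 weeks and *Cryaa* between ages in luminal cells. Few of all genes passed either: 0 of 12082 at 4 weeks and 0 of 11921 at 6 weeks between cell types. Between the ages 5 of 12572 passed in basal and 152 of 12572 in luminal cells. The difference between the genotype effects of 9 weeks and of the younger ages was not tested.

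Of the 68 genes that separated the genotypes at 9 weeks, 64 passed the filter at 4 weeks, and 4 of these separated the genotypes in the same direction in basal cells, 1 in luminal cells and 0 over both cell types. The opposite direction was seen in 1, 3 and 0. Of all genes, 4.7%, 6.94% and 0.108% lay apart in the direction of their 9-week means. The 4 were *Cdkn1b*, *LOC690326*, *Minpp1* and *Sod2*. At 6 weeks 63 passed, with 10 in the same direction and 18 in the opposite one in basal cells, 16 and 16 in luminal cells, and 1 and 4 over both. The shares of all genes in the direction of their 9-week means were 17.9%, 24.3% and 4.19%. In either direction they were 40.9%, 49.7% and 9.37%, and at 4 weeks 9.1%, 12.1% and 0.166%. Among those of the 6 genes that passed the filter, only *Tnc*, in luminal cells at 6 weeks, kept the 9-week direction without overlap. The rest were not alone among the 68 in lacking that pattern at the younger ages.

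**Figure D3:**
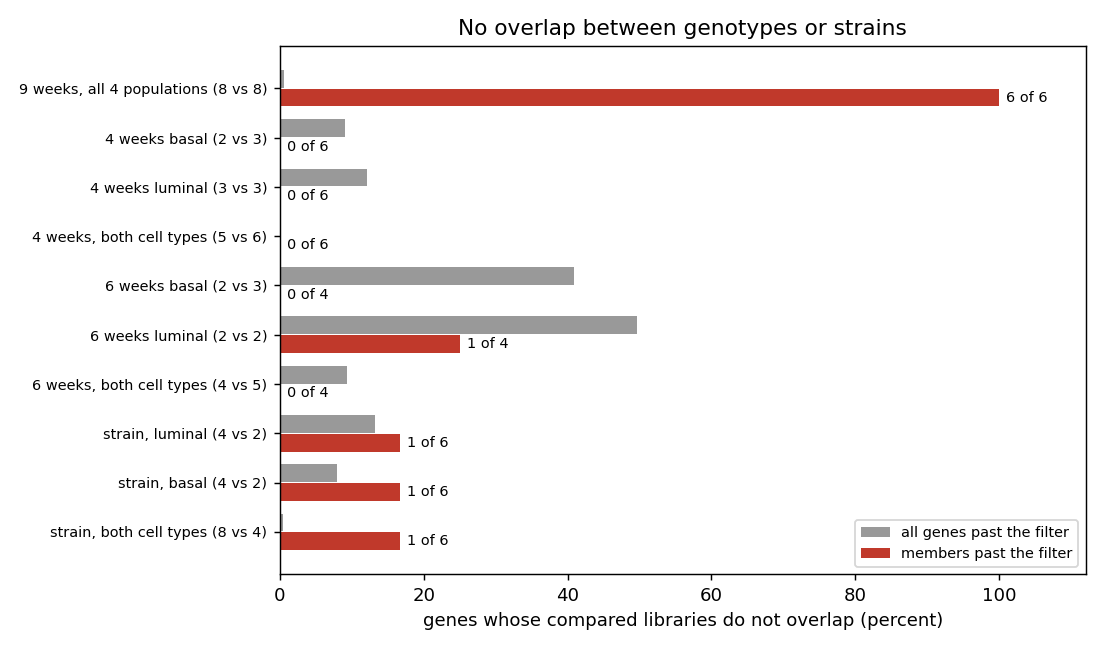
Share of genes, in percent (horizontal axis), whose compared libraries did not overlap in either direction, for each comparison with its numbers of libraries (vertical axis), for all genes past the filter on low counts (grey) and for those of the 6 genes past it (red, with counts). At 9 weeks the red bar is 6 of 6 because the genes were chosen there, and in the younger rats it is at or below the grey bar.

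Basal and luminal cells of the younger rats were compared as the mean difference over both ages and genotypes, and 2 of the 6 genes passed. *Tnc* and *Gata6* were higher in basal than in luminal cells at 4 and 6 weeks, among 3976 of 12572 genes (31.6%) that passed in either direction. The log2 fold change was 3.23 (SE 0.65, adjusted p = 0.000823, edgeR's quasi-likelihood test) for *Tnc* and 3.37 (SE 1.10, adjusted p = 0.0254) for *Gata6*. Basal and luminal libraries came from the same animals, and with the animal as a random block in limma *Tnc* was still called and *Gata6* was not (1.89, adjusted p = 0.0869). Basal and luminal libraries overlapped for both genes at each age, where 15.2% of all genes at 4 weeks and 6.31% at 6 weeks lay apart with basal higher. *Tnc* was lowest at 2.52 and 1.70 in basal cells of 4 and 6 weeks and highest at 3.04 and 2.43 in luminal cells. *Gata6* was at 0 in 2 basal libraries and at 0.0525 and 0.0703 in another 2, and reached 0.320 in luminal cells. The summed fibroblast list was 4470 to 9406 in basal and 90.2 to 443 in luminal cells at 4 weeks, with 12 of 12 genes higher in basal cells, and overlapped at 6 weeks. The 4-week basal libraries with the highest fibroblast sums, 8435 and 9406, were those with 15.2 and 18.1 of *Tnc*, while the other 3, at 4470 to 5677, had 2.52 to 3.16. The part of fibroblast RNA in these differences was not tested. *Gata6* fell to 1.85 without replicate 2 of the 4-week *Cdkn1b*-/- basal libraries and its adjusted p was then 1.00 in edgeR's test. *Shc1* (-0.51, SE 0.31) and *Bicc1* (0.95, SE 0.68) did not pass. Among the lists, 6 of 12 crystallins and small heat shock proteins were called higher and 1 lower in basal cells, led by *Cryga*, and 8 of 17 tenascins and matrix partners were called higher and 2 lower, led by *Vcan*. Of the GATA list 1 of 8 was higher and 2 lower, of the SHC list 5 of 20 higher and 2 lower, and of the BICC1 list 0 of 14 higher and 3 lower. At 9 weeks *Tnc* and *Gata6* were not apart between basal and other cells (11.9% of genes were, with basal higher).

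Strain was compared in the E2 experiment, ACI against BN with treatment as a term, where only 1 BN library stands for each treatment and cell type. None of the 5 genes tested passed, and none of 11499 genes in luminal or 11288 in basal cells did (0%), of which 527 and 89 had an unadjusted p under 0.05, while DESeq2 called 306 and 8. *Fam180a* did not pass the filter of these fits. *Shc1* was 14.2, 24.8, 23.6 and 8.34 normalised CPM in the 4 ACI luminal libraries and 70.9 and 118 in the 2 BN ones. In basal cells it was 43.5, 57.1, 14.6 and 22.6 against 59.0 and 155. Every ACI library was below every BN library within each cell type, and over both, where 0.247% of all genes lay apart with ACI lower (6.67% in luminal and 5.31% in basal cells). In either direction these shares were 0.397%, 13.2% and 7.96%. In the same libraries the summed luminal list (10466 to 27839 in ACI, 31303 to 33065 in BN luminal cells, 5 of 10 genes higher in ACI) and the myeloid list of luminal cells (158 to 236 against 655 to 768, 7 of 13 genes higher in ACI) were lower in ACI, and the Schwann cell list of luminal cells was higher (450 to 1045 against 385 to 433, 6 of 7 genes). The fibroblast list of basal cells was lower in ACI (2415 to 4931 against 5054 to 21719, 0 of 12 genes higher in ACI). Their part in the *Shc1* values was not tested.

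The log2 fold change of *Shc1* was -2.43 (SE 0.65, adjusted p = 0.932, edgeR's quasi-likelihood test) in luminal and -1.89 (SE 0.79, adjusted p = 1) in basal cells. With CPM scaled by the total count, basal cells overlapped (57.1 in 1 ACI library against 49.2 in 1 BN library), and only luminal cells separated. *Shc1* was the gene that was lower in the *Cdkn1b*-/- ACI libraries at 9 weeks. Those rats and their controls had been crossed from Sprague-Dawley to ACI, and the backcross generation of each library is not given in the sources used here. The strain and genotype comparisons share no library. Of the other genes, *Bicc1* separated the strains in luminal cells under total-count scaling alone, and *Cryaa*, *Gata6*, *Tnc* and *Fam180a* under neither.

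Replicates of the E2 experiment disagreed widely for the low genes. *Cryaa* had 166 counts in 1 ACI control basal library and 1 in the other. *Gata6* had 0 and 223 counts in the same pair, and 1 and 186 in the ACI E2 basal pair. *Fam180a* had 167 counts in 1 ACI E2 luminal library and 0 in the other. The values of these 3 genes in this experiment therefore differ between replicates from 1 or 0 counts to over 100.

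E2 treatment was compared with strain as a term, and none of the 4 tested in luminal (0% of 10687 genes passed) or the 5 tested in basal cells (0% of 10527) passed. *Fam180a* did not pass the filter of either fit, nor *Cryaa* that of luminal cells. Unadjusted p was under 0.05 for 434 and 200 genes, and DESeq2 called 85 and 73. *Bicc1* in basal cells was 53.7 and 8.42 normalised CPM in E2-treated ACI rats and 29.1 in the BN library, against 0.976 and 1.22 in ACI controls and 3.96 in the BN control. The 3 E2 libraries lay above the 3 controls, as 2.71% of all genes did (9.22% in either direction). The summed Schwann cell list was lower in the same E2 libraries (581 to 840 against 1536 to 3203, 0 of 7 genes higher), and its part in the *Bicc1* values was not tested. The log2 fold change was 4.23 (SE 1.26, adjusted p = 1, edgeR's quasi-likelihood test), and DESeq2 called it (4.26, adjusted p = 0.0147). In luminal cells *Bicc1* was 44.0, 10.2 and 4.91 after E2 and 6.67, 4.80 and 2.80 in controls, a log2 fold change of 1.78 (SE 1.16) with overlap (10.3% of all genes lay apart there). The 2 highest values, 53.7 and 44.0, came from basal and luminal cells of the same ACI rat.

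**Figure D4:**
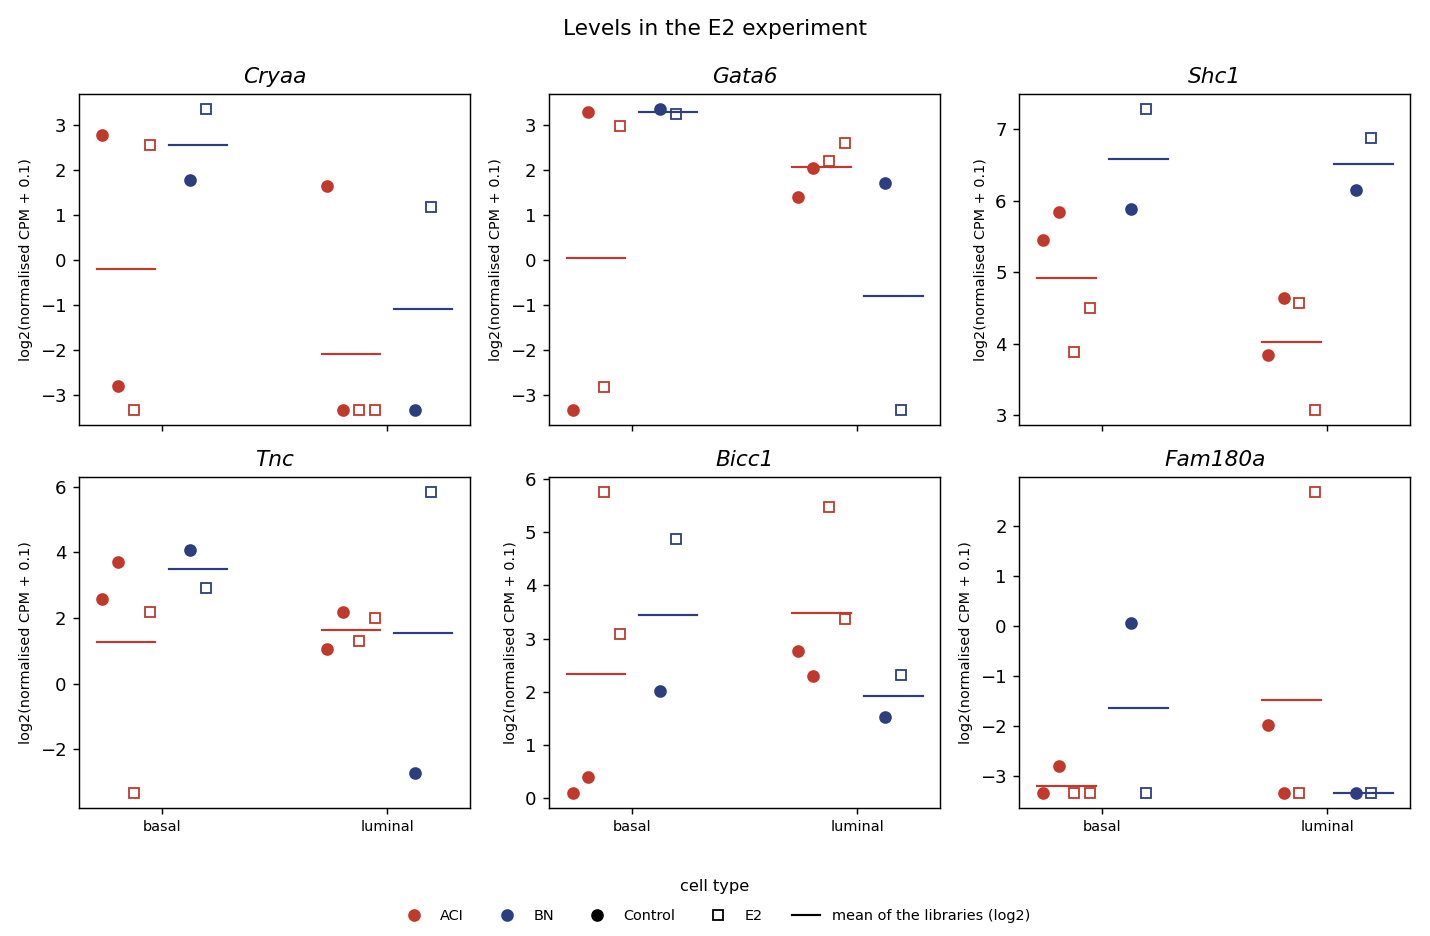
Normalised level of each gene in the E2 experiment, as log2 of CPM plus 0.1 (vertical axis), in basal and luminal cells (horizontal axis), with ACI libraries in red, BN libraries in blue, controls as filled circles, E2 as open squares and strain means as bars; points at about -3.3 are libraries with 0 counts. *Shc1* is lower in every ACI than in every BN library of the same cell type, and *Bicc1* in basal cells is higher in each E2 library than in each control.

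The 6 genes moved together at 9 weeks because they were chosen for that. Over the 32 libraries of the other ages and of the E2 experiment, Pearson's r of log2 CPM between pairs of them was highest for *Gata6* and *Bicc1* (0.544) and lowest for *Shc1* and *Fam180a* (-0.581), and *Tnc* and *Bicc1*, with r of 0.863 at 9 weeks, had r of -0.00016. These libraries differ in age, strain, sort and depth, which the correlation does not remove. Among 10132 genes, the pattern most like that of *Shc1* over these 32 libraries was that of *Pim1*, a serine/threonine kinase (r = 0.688). The nearest to *Tnc* was *Sdk2* (0.777), to *Bicc1* *Mob1b* (0.802), to *Gata6* *Pcsk6* (0.673), to *Cryaa* *Fndc3b* (0.617) and to *Fam180a* *Cdk4* (0.762), the cyclin D partner kinase. *Fam180a* was at 0 in 4 of 5 *Cdkn1b*+/+ and 2 of 4 *Cdkn1b*-/- libraries of 6 weeks. It was also at 0 in 5 of 8 ACI and 3 of 4 BN libraries of the E2 experiment, but in none of 4 weeks. The part of these zeros in its r was not tested.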

How the data were processed

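RNA-seq of 48 libraries of sorted rat mammary cells was used. The authors deposited raw gene counts, made from single-end SMARTer low-input reads aligned to rn6 with STAR 2.5.1b and counted with htseq-count (HTSeq 0.6.1p1) on refGene. The strand setting is not given in the sources used here, and reads of overlapping genes cannot be told apart. The share of reads assigned to no gene, 47.1% to 77.0%, was left out of totals. The Pr ChIP-seq peaks were not used, since no annotation of their build was at hand.

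Counts were scaled by TMM within each experiment and given as CPM; log2 CPM used a prior count of 2. Genes were filtered by edgeR's filterByExpr and tested with its quasi-likelihood test (edgeR 4.0.16, R 4.3.3) with Benjamini-Hochberg adjustment at 0.05. Each younger age was fitted with a group for each genotype and cell type, and both ages together with a group for each age, genotype and cell type, testing the mean of the 4 differences. DESeq2 1.42.0 and limma 3.58.1 (voom, animal as a random block), RLE scaling, other filters, a log2 fold change above 1, other sets of libraries in a fit and leaving out each library were alternatives. RLE scaling of the no-overlap counts, the 9-week sums and the omission of the 6-week library with low *Cdkn1b* were chosen after seeing the data. The fits of some comparisons were tested on simulated data in which only genes above a mean CPM cut were changed. That test does not cover genes as low as *Cryaa*, *Gata6* and *Fam180a*. No duplicate was found in 28 pairs of libraries. Depth limits *Cryaa*, *Gata6* and *Fam180a*, and p-values measure the spread between libraries.

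The 6 genes, the lists of partners and markers and the alternatives were chosen with earlier results of these data known. Named genes are the 6, *Cdkn1b*, up to 3 list genes with the smallest p, the gene most alike, the nearest neighbours and the genes at the edge of the rule. *Cryab*, *Gata3*, *Grb2* and *Cks1b* were named after their values were seen.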

Additional observations from a re-analysis of the deposited data

Results flagged for a closer look

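Libraries far from the rest of their group were looked for in 24 sets of 4 or 8 libraries (a gene at 9 weeks by genotype, or in ACI cells of the E2 experiment by cell type), and 6 were found. The rule's nominal rate of about 1 in 20 is for like libraries. These sets pool cell populations or treatments and some hold zeros, so the 6 cannot be set against that rate. *Cryaa* reached 42.5 normalised CPM in number 2 of the *Cdkn1b*-/- basal libraries at 9 weeks, and the next library, number 1 of the same cells, had 18.1. In ACI luminal cells *Cryaa* was 3.02 in 1 control library and at 0 in the other 3. *Bicc1* was 44.0 in ACI luminal and 53.7 in ACI basal cells of 1 E2-treated rat, where the next libraries, from the other E2-treated rat, had 10.2 and 8.42. *Fam180a* was 6.24 in 1 E2-treated ACI luminal library against 0.156 in the next, and 0.0436 (1 count) in 1 ACI control basal library with the other 3 at 0. No difference in effect between ages, cell types or strains passed edgeR's test among those of the 6 genes tested. Of all genes, 5 and 152 of 12572 passed for genotype between ages in basal and luminal cells. For E2 between strains 1 of 12405 passed, and 0 did in the other differences tested. *Cryaa* and *Fam180a* were not tested between cell types at 6 weeks, nor *Fam180a* for E2 between cell types, and the estimate for *Cryaa* between ages in luminal cells rests on groups at 0.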

How the results depend on the processing

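The numbers 1 and 2 of the 9-week libraries do not pair the genotypes, and the fit with a replicate block gave log2 fold changes of 4.19 for *Cryaa*, 2.45 for *Gata6*, -1.52 for *Shc1*, 1.84 for *Tnc*, 2.24 for *Bicc1* and 1.99 for *Fam180a*, against 4.29, 2.55, -1.56, 1.86, 2.27 and 1.87 without it. All 6 genes separated the genotypes at 9 weeks under TMM, RLE and total-count scaling. Leaving out a library cannot undo a separation, so the count of 6 without each library in turn was fixed in advance. Of the counts of genes called or separating under the alternatives, these omissions included, 163 were within 1.5 times the reported count and 9 were not. Many of the 163 set 0 against a reported 0, and the added log2 fold change cut cannot raise a 0. The tally is therefore not a measure of robustness. DESeq2 called 1 gene, *Bicc1*, for E2 in basal cells. The count for basal against luminal cells, 2, was 0 with at least 10 counts in every library, where only 1 of the 6 genes was tested, 1 with limma voom and the animal as a random block (*Gata6* at adjusted p = 0.0869), and 1 to 3 without each library in turn. *Gata6* lost its call without 5 single libraries (log2 fold change 1.85 to 3.26, adjusted p 0.0507 to 1.00), and *Bicc1* gained one without 1 *Cdkn1b*-/- luminal library of 6 weeks (2.72, adjusted p = 0.0261). The number of separations between strains, 2 (*Shc1* in each cell type), was 1 with RLE scaling, where *Shc1* separated luminal cells alone, and total-count scaling gave 2 with *Shc1* and *Bicc1* in luminal cells. The causes of these changes were not tested.

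For the genotype at 4 and 6 weeks, the estimate of *Tnc* turned to -0.11 in the additive fit and to -0.27 and -0.05 without replicate 2 of the 4-week *Cdkn1b*-/- basal or replicate 1 of the 6-week *Cdkn1b*+/+ luminal libraries, and that of *Bicc1* to 0.011 without the latter. Over all such omissions *Tnc* ranged from -0.27 to 0.88 and *Bicc1* from -2.23 to 0.011. That of *Fam180a* in basal cells of 4 weeks turned to -0.33 without replicate 1 of the *Cdkn1b*-/- libraries, in a range of -0.33 to 2.98. Without each library in turn, the number of genes called stayed 0 to 0 in all genotype, strain and E2 comparisons, although all-gene counts moved: the genotype count at 4 and 6 weeks, 1002, was 2058 with DESeq2, 476 with limma voom and the animal block, 0 in the additive fit, 338 without replicate 1 of the 6-week *Cdkn1b*-/- basal libraries and 3542 without replicate 1 of the luminal ones, where 1365 were higher and 2177 lower against 743 and 259 in the reported fit. It also moved by over 1.5 times, to between 372 and 1707, without replicate 2 or 3 of the 4-week *Cdkn1b*+/+ basal or luminal libraries, replicate 1 of the 4-week or 2 of the 6-week *Cdkn1b*-/- basal ones, or replicate 3 of the basal or 1 of the luminal *Cdkn1b*+/+ ones of 6 weeks.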
